A study of Mus musculus with 7 samples.

Results

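The surface marker genes of sorted crypt cells comprised 9 genes, Kit, Cd24a, Epcam, Cd44, Prom1, Alcam, Itga6, Itgb4 and Cd9, out of 55414 genes in the count table. They were given as a list of symbols, and each symbol matched exactly 1 Ensembl identifier of the table. Their transcripts were counted by bulk RNA-seq in purified Paneth cells (PCs), which sit at the crypt base in the small intestine and release granules of antimicrobial proteins. PCs were obtained with a cell sorter from C57BL/6J mice, 15 h after they had been injected with the cytokine TNF (tumour necrosis factor, 4 libraries) or with PBS (phosphate-buffered saline, 3 libraries), and the labels give no genetic modification in either group. According to the series description, every library came from its own mouse. Not given in the sources used here are the TNF dose, the sex and age of the mice, the antibodies and gates of the sort and the part of the small intestine taken.

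Surface proteins are the handles by which crypt cells are told apart in a cell sorter. KIT (CD117), the receptor tyrosine kinase for stem cell factor, and CD24, a small mucin-like glycoprotein held in the membrane by a GPI anchor, are commonly stained together to collect PCs. EPCAM, an adhesion molecule on all intestinal epithelial cells, is used to separate epithelium from other tissue, whereas the hyaluronan receptor CD44, the membrane protein prominin 1 (encoded by Prom1) and the immunoglobulin-type adhesion molecule ALCAM are enriched in the lower crypt and have served to mark stem and progenitor cells. Integrin subunits alpha 6 and beta 4, encoded by Itga6 and Itgb4, form the laminin receptor that ties epithelial cells to the basement membrane, and CD9 is a tetraspanin, a membrane organiser that binds integrins and other surface proteins. The measurements below are of mRNA, and surface protein was not measured.

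Library totals ran from 15511455 to 19193721 counts. Values per library are CPM (counts per 1000000 counts, after TMM scaling of the libraries, which lines up the bulk of the genes), and TNF was compared with PBS by the quasi-likelihood test of edgeR over 14329 genes with Benjamini-Hochberg adjustment. Genes with an adjusted p under 0.05 are called. The PC identity of the samples was checked with 11 PC markers, of which all were tested. Their summed level was 191473 to 320949 CPM after PBS and 188068 to 349351 CPM after TNF, with 3 genes called higher and 3 lower (of all tested genes, 29.5% were called higher and 30.1% lower). The lysozyme gene Lyz1 averaged 96515 ± 17916 (SD, n = 3) and 118731 ± 28082 CPM (SD, n = 4) in PBS and TNF mice (log2 fold change 0.30 ± 0.32, SE, adjusted p = 0.444). The PC markers called higher were Nupr1 (log2 fold change 2.49), Defa22 (1.76) and Mmp7 (0.88), and those called lower were Clps (-2.27), Habp2 (-1.26) and Mptx2 (-1.07), with Defa22 uncertain because alpha-defensin genes are near-identical copies. The endothelial marker Pecam1 had 5 and 4 counts in all PBS and all TNF libraries. Another endothelial marker, Vwf, was called higher, with 2.3 ± 0.204 (SD, n = 3) and 8.53 ± 0.844 CPM (SD, n = 4). Tek, the other endothelial marker tested, was called lower, with 3.97 ± 2.7 (SD, n = 3) and 1.43 ± 0.173 CPM (SD, n = 4). The leukocyte marker Ptprc had between 6.25 and 26.2 CPM in single libraries and was called lower (log2 fold change -0.95 ± 0.33, SE, edgeR adjusted p = 0.027). The neutrophil marker S100a9 had 0 counts in the PBS libraries and 399 in the TNF libraries and was called higher. S100a8 had 0 and 32 counts and was not tested. The remaining leukocyte markers tested, Itgam (log2 fold change 0.14 ± 0.59, SE) and Cd68 (1.04 ± 0.56), were not called (edgeR adjusted p = 0.851 and 0.125). The T cell markers Cd3e and Cd3d were at 0 counts in all 7 libraries.

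All 9 surface marker genes passed the filter on low counts, and 7 of them were called. Of all tested genes, 59.6% were called, so a share of 7 in 9 has to be read against a background in which most tested genes were called. Cd9, Epcam, Cd44 and Itga6 were higher after TNF (29.5% of tested genes were called higher), and Kit, Cd24a and Itgb4 were lower (30.1% were called lower). Prom1 and Alcam were not called. The median log2 fold change was 0.19 over the 9 genes and 0.0017 over all tested genes. For 8 of the 9 genes the TNF libraries did not overlap the PBS libraries, compared with 60.7% of tested genes. Cd9, Epcam, Cd44 and Kit were called and differed by 2-fold or more, as did 31.6% of tested genes.

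**Figure D1:**
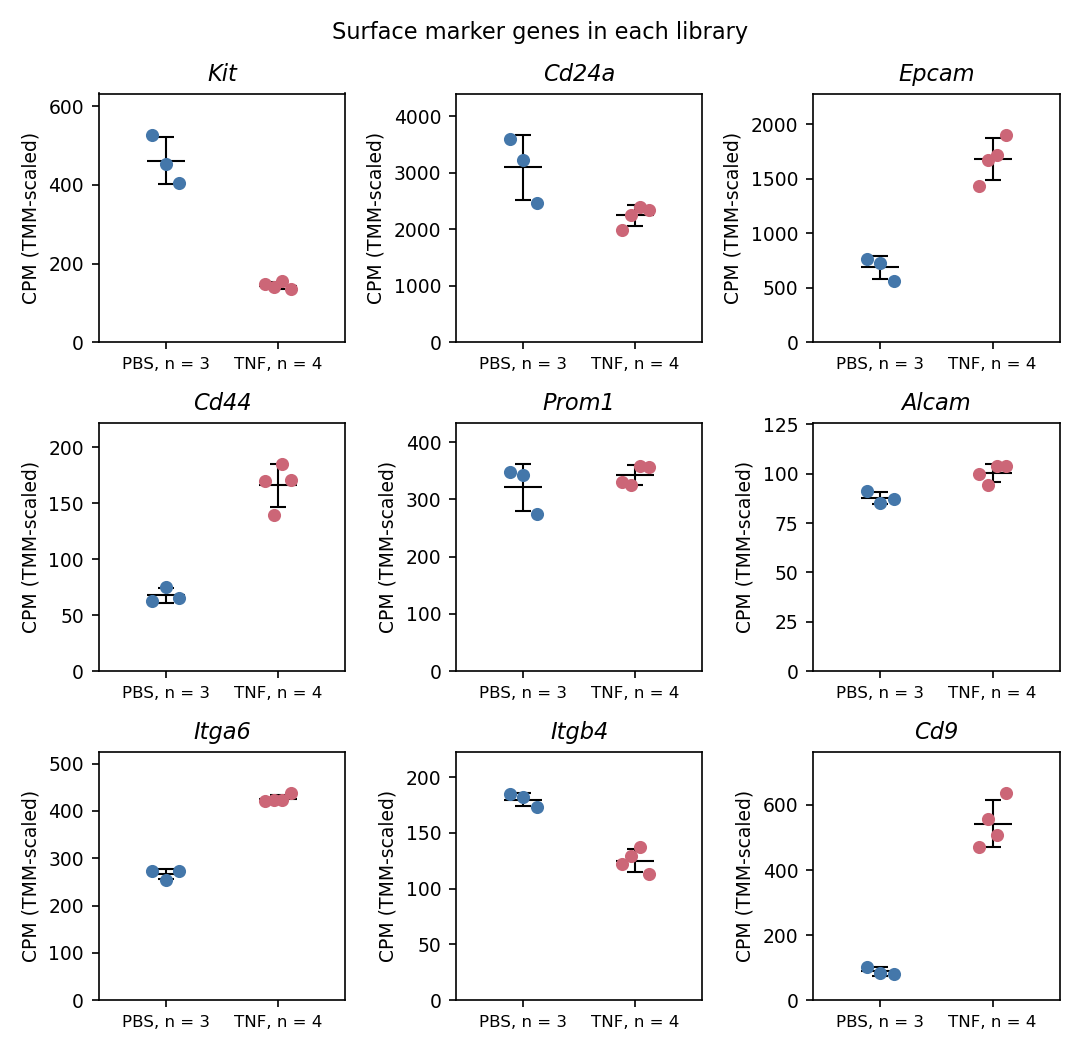
Level of each surface marker gene in each library, in CPM on TMM-scaled library sizes, on axes that start at 0. Each point is 1 library (3 PBS, 4 TNF), and black marks are the mean ± SD. Kit lies between 134 and 155 CPM in the TNF libraries and between 406 and 527 CPM in the PBS libraries, Cd9 shows the opposite order, and only Prom1 overlaps between the groups.

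The genes of the proteins commonly stained to collect PCs were both lower after TNF. Kit (ENSMUSG00000005672, GRCm39 chromosome 5, 75735576 to 75817404, plus strand) had 527, 452 and 406 CPM in the PBS libraries and 149, 140.3, 155 and 134 CPM in the TNF libraries. Every TNF library lay far below every PBS library, and the TNF libraries were close to each other. PBS mice averaged 462 ± 60.8 CPM (SD, n = 3) and TNF mice 144 ± 9.04 CPM (SD, n = 4), with log2 fold change -1.68 ± 0.11 (SE, edgeR adjusted p = 3.55e-08). Of all tested genes, 9.29% had a larger fall. When each library was left out in turn, the log2 fold change of Kit stayed between -1.77 and -1.57.

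Cd24a (ENSMUSG00000047139, GRCm39 chromosome 10, 43454280 to 43460264, plus strand) was the most abundant of the surface markers. It had 3596, 3224 and 2468 CPM after PBS and 1981, 2256, 2392 and 2345 CPM after TNF. The groups did not overlap, but PBS replicate 3 lay just above TNF replicate 3. PBS mice averaged 3096 ± 575 CPM (SD, n = 3) and TNF mice 2244 ± 184 CPM (SD, n = 4), with log2 fold change -0.46 ± 0.17 (SE, edgeR adjusted p = 0.0259). When each of the 7 libraries was left out in turn, this call was lost in 4 cases. The log2 fold change was -0.34 without PBS replicate 1 (adjusted p = 0.0898), -0.43 without PBS replicate 2 (0.0848), -0.41 without TNF replicate 1 (0.0579) and -0.46 without TNF replicate 2 (0.068). Cd24a overlaps Mtres1 on the opposite strand, with 417 counts in the PBS and 320 counts in the TNF libraries, against 168056 and 154181 counts for Cd24a.

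Kit and Cd24a did not move in proportion. The ratio of Cd24a to Kit counts, which needs no scaling between libraries, was 6.83, 7.14 and 6.07 in the PBS libraries and 13.3, 16.1, 15.5 and 17.5 in the TNF libraries. No TNF library came near the PBS range, and on the log scale the group means differed 2.33-fold. When all libraries were scaled to their Cd24a counts, Kit still fell, by 1.22 ± 0.12 on the log2 scale (SE, edgeR adjusted p = 1.02e-06). Whether the sort kept cells with less KIT or CD24 protein was not tested, since protein was not measured.

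Epcam (ENSMUSG00000045394, GRCm39 chromosome 17, 87943407 to 87958557, plus strand) rose. It had 765, 726 and 564 CPM in the PBS libraries and 1430, 1672, 1720.3 and 1901 CPM in the TNF libraries. The lowest TNF library was clearly above the highest PBS library. PBS mice averaged 685 ± 107 CPM (SD, n = 3) and TNF mice 1681 ± 194 CPM (SD, n = 4), with log2 fold change 1.30 ± 0.16 (SE, edgeR adjusted p = 7.48e-06). In the fit, this was a difference of 2.46-fold.

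Of the lower crypt markers, Cd44 was called and Prom1 and Alcam were not. Cd44 (ENSMUSG00000005087, GRCm39 chromosome 2, 102641486 to 102732010, minus strand) had 62.6, 74.8 and 65.6 CPM after PBS and 169.7, 139.6, 185 and 171 CPM after TNF. All TNF libraries were above all PBS libraries. PBS mice averaged 67.7 ± 6.37 CPM (SD, n = 3) and TNF mice 166 ± 19.1 CPM (SD, n = 4), with log2 fold change 1.30 ± 0.12 (SE, edgeR adjusted p = 6.38e-07). Counts per gene do not separate the standard from the variant splice forms of Cd44.

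Prom1 (ENSMUSG00000029086, GRCm39 chromosome 5, 44150962 to 44259395, minus strand) had 348, 342 and 274 CPM after PBS and 329.6, 325, 359 and 357 CPM after TNF. These ranges overlapped, and with means of 321 ± 40.8 (SD, n = 3) and 343 ± 17.7 CPM (SD, n = 4) no difference was detected (log2 fold change 0.09 ± 0.11, SE, edgeR adjusted p = 0.499). The sign of this small value depended on the scaling, since it was -0.06 with total counts only. Prom1 shares its strand with the overlapping gene Gm42716, which had 186 and 726 counts in the PBS and TNF libraries against 17513 and 23571 for Prom1. Alcam (ENSMUSG00000022636, GRCm39 chromosome 16, 52069359 to 52274437, minus strand) had 91.3, 85 and 87 CPM after PBS and 99.8, 94.2, 104 and 104 CPM after TNF. Although the TNF libraries did not overlap the PBS libraries, the shift from 87.7 ± 3.24 (SD, n = 3) to 100.4 ± 4.59 CPM (SD, n = 4) was not called (log2 fold change 0.19 ± 0.09, SE, edgeR adjusted p = 0.0871). With total counts only, it was 0.03.

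The subunits of the laminin receptor moved in opposite directions. Itga6 (ENSMUSG00000027111, GRCm39 chromosome 2, 71575960 to 71689757, plus strand) had 272, 254 and 272 CPM after PBS and 421, 424, 423 and 438 CPM after TNF. The libraries of each group were very close to each other and the groups were well apart. PBS mice averaged 266 ± 10.4 CPM (SD, n = 3) and TNF mice 426 ± 7.63 CPM (SD, n = 4), with log2 fold change 0.68 ± 0.10 (SE, edgeR adjusted p = 4.63e-05).

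Itgb4 (ENSMUSG00000020758, GRCm39 chromosome 11, 115865333 to 115899239, plus strand) had 185, 182 and 173 CPM after PBS and 122, 129, 137 and 113 CPM after TNF. Every TNF library was below every PBS library. PBS mice averaged 180 ± 5.89 CPM (SD, n = 3) and TNF mice 125 ± 10.2 CPM (SD, n = 4), with log2 fold change -0.52 ± 0.10 (SE, edgeR adjusted p = 0.000451). The ratio of Itgb4 to Itga6 counts was 0.68, 0.716 and 0.638 in the PBS libraries and 0.29, 0.304, 0.324 and 0.258 in the TNF libraries. The TNF values all lay below the PBS range, by 2.31-fold between group means on the log scale. Itgb4 overlaps Galk1 on the opposite strand, with 1928 counts in the PBS and 1448 counts in the TNF libraries against 9831 and 8658 for Itgb4. Because it is not known whether counting used strand, the level of Itgb4 is less certain than that of the other genes.

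The largest change of the 9 genes was that of Cd9 (ENSMUSG00000030342, GRCm39 chromosome 6, 125437210 to 125471778, minus strand). It had 103, 82.3 and 79.7 CPM after PBS and 471, 557, 507 and 637 CPM after TNF. The lowest TNF library was several times above the highest PBS library. PBS mice averaged 88.3 ± 12.8 CPM (SD, n = 3) and TNF mice 543 ± 72 CPM (SD, n = 4), which is 6.15-fold in the fit (log2 fold change 2.62 ± 0.15, SE, edgeR adjusted p = 5.54e-09). Only 3.48% of tested genes had a larger rise. No counts were assigned to the processed pseudogene Cd9-ps in any library.

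The start regions of the genes with a change of at least 2-fold are shown to give the sequence context of the 3 genes that rose and the 1 that fell. RefSeq windows of 300 bases (250 before to 50 after an annotated start, build GRCm38.p6) were found for 6 of the 9 genes, namely Kit, Epcam, Cd44, Prom1, Alcam and Cd9. These coordinates belong to GRCm38.p6 and not to the GRCm39 positions given above. Matches to 4 letter patterns on either strand are in capitals, a kappaB site (bound by NF-kB factors, 10 bases with any base allowed at positions 4 and 5), the AP-1 site TGANTCA, the GC box GGGCGG and the TATA box TATAAA.
Cd9, chr6:125494711-125495010, minus strand: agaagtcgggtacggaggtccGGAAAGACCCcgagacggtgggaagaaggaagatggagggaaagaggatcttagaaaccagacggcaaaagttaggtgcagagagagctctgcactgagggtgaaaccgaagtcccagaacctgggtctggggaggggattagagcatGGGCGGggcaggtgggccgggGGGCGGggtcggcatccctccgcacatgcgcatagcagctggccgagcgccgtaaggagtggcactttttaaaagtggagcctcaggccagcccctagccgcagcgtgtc
Epcam, chr17:87635729-87636028, plus strand: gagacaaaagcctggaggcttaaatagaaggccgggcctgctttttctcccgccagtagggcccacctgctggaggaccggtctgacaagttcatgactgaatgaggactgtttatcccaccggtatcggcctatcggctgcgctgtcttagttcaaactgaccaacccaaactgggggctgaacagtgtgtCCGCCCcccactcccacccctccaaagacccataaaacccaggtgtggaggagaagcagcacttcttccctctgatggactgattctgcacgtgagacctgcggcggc
Cd44, chr2:102901616-102901915, minus strand: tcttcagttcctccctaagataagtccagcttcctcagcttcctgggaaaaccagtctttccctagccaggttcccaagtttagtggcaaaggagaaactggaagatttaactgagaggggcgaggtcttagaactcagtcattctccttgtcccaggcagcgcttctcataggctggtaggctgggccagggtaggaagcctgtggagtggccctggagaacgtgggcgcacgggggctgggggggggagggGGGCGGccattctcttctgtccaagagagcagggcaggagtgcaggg
Kit, chr5:75574737-75575036, plus strand: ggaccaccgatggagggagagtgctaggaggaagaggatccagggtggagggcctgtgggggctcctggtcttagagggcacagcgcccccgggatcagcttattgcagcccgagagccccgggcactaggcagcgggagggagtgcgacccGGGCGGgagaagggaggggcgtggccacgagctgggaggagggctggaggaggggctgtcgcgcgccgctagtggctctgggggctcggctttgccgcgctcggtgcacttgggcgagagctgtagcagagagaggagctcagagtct
The Cd9 window held 1 kappaB match, GGAAAGACCC on the strand shown, with its first base at -229 from the start, and 2 GC boxes. The kappaB pattern was present in 1.63% of all 32851 windows. The Epcam, Cd44 and Kit windows each held 1 GC box, a pattern present in 35.7% of windows, and no kappaB or AP-1 match. Among the windows not printed, both of Prom1 held an AP-1 match (7.81% of windows) and that of Alcam held 2 GC boxes. None of the windows of these 6 genes held the TATA pattern (13.6% of windows). A match describes letters in this window only, and binding was not measured.

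Levels were then compared between genes per length, as TPM (transcripts per 1000000 transcripts), calculated from the counts and the summed exon length of each gene. After PBS, Cd24a was highest with 2090.3 ± 166 TPM (SD, n = 3), followed by Epcam with 464 ± 53.3 TPM. Kit (86 ± 12.5 TPM), Cd9 (73.3 ± 12.2 TPM) and Prom1 (73.1 ± 10.7 TPM) came next, and their ranges overlapped, with Kit above Cd9 in 3 of 3 libraries and Cd9 above Prom1 in 2 of 3. Itgb4 (44.7 ± 10.6 TPM) and Itga6 (42.2 ± 12 TPM) also overlapped in range, as did Alcam (22.2 ± 5.65 TPM) and Cd44 (18 ± 5.01 TPM), which were lowest. Within libraries, Itgb4 was above Itga6 and Alcam above Cd44 in 3 of 3. Cd24a ranked 26 and Epcam 55 among all tested genes, whereas Cd44 ranked 2532.

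After TNF this order was rearranged below the top. Cd24a (1481 ± 235 TPM, SD, n = 4) and Epcam (1099.9 ± 124 TPM) now overlapped in range, although Cd24a was above Epcam in 4 of 4 libraries. Cd9 (431 ± 46 TPM) came next and overlapped neither neighbour. Prom1 (75.9 ± 15.5 TPM), Itga6 (64.5 ± 13.8 TPM), Cd44 (42.5 ± 11.5 TPM), Itgb4 (30.1 ± 7.43 TPM), Kit (26.5 ± 7.1 TPM) and Alcam (24.3 ± 5.45 TPM) followed, and each overlapped its neighbour in range. Within libraries, each of these was above the next in 4 of 4, except that Kit was above Alcam in 3 of 4. In the order of tested genes within each group, Kit held place 348 after PBS and 1818 after TNF, Cd9 places 435 and 73, and Cd44 places 2532 and 1085.

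To place the changes relative to an epithelial surface gene, all libraries were also scaled to their Epcam counts, so that the test concerned the ratio of each gene to Epcam. On this scale Cd9 was still higher after TNF (log2 fold change 1.32 ± 0.12, SE, edgeR adjusted p = 8.96e-07). The ratio of Cd44 to Epcam did not differ beyond the spread between libraries (-0.01 ± 0.16, adjusted p = 0.965), and the ratio of raw counts ran from 0.0819 to 0.116 after PBS and from 0.0835 to 0.119 after TNF. Kit (-2.96 ± 0.14, adjusted p = 7.2e-09), Itgb4 (-1.82 ± 0.15, 3.37e-07), Cd24a (-1.75 ± 0.10, 2.15e-08), Prom1 (-1.20 ± 0.11, 7.87e-07), Alcam (-1.11 ± 0.15, 1.85e-05) and Itga6 (-0.63 ± 0.14, 0.00105) were all lower relative to Epcam. Over all tested genes, the median with this scaling was -1.30, so a value near -1.30 is that of a typical gene. Relative to that shift, Prom1 and Alcam lay near the median, and Itga6 lay above it.

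**Figure D2:**
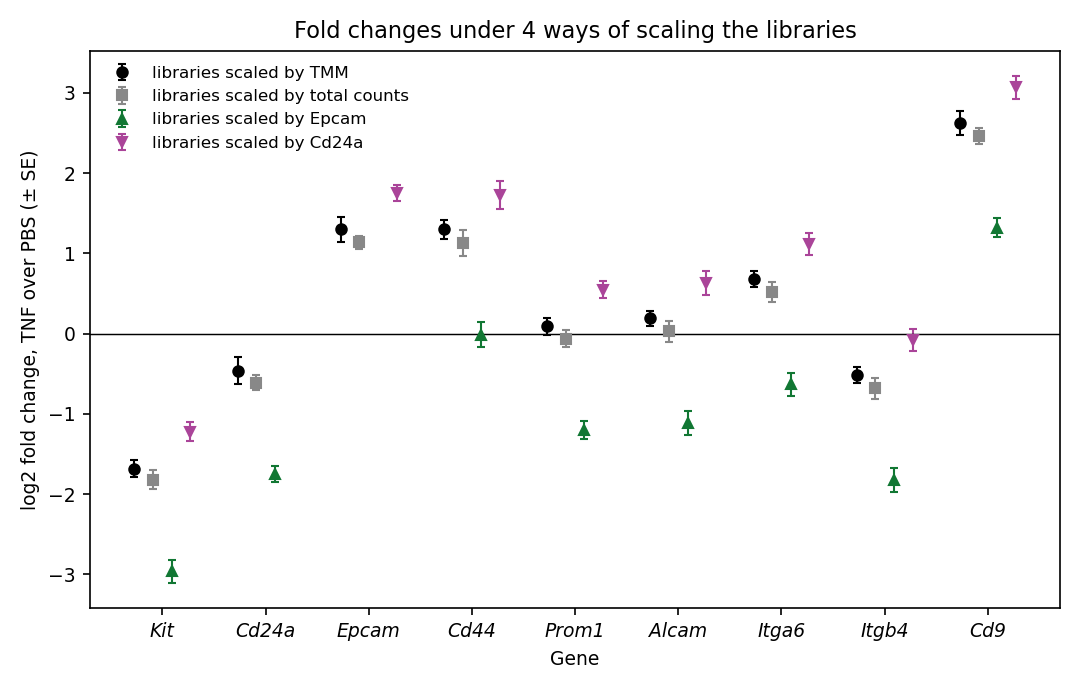
Log2 fold change (TNF over PBS, edgeR, bars are SE) of each surface marker gene with libraries scaled by TMM, by total counts, to Epcam counts or to Cd24a counts. Kit is negative and Cd9 positive under all 4, whereas Itga6 runs from -0.63 (scaled to Epcam) to 1.12 (scaled to Cd24a), and the gene used for scaling has no value.

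**Figure D3:**
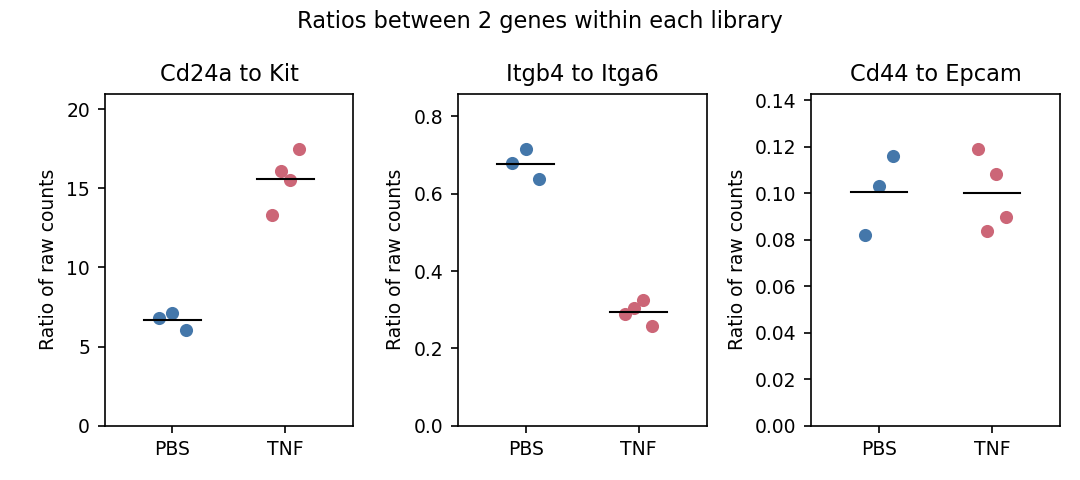
Ratio of raw counts between 2 surface marker genes within each library, on axes that start at 0. Points are libraries and lines are group means. The ratio of Cd24a to Kit is 6.07 to 7.14 after PBS and 13.3 to 17.5 after TNF, that of Itgb4 to Itga6 falls from 0.638 to 0.716 down to 0.258 to 0.324, and that of Cd44 to Epcam overlaps.

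The spread between libraries of one group, as a coefficient of variation, was between 1.79% (Itga6 after TNF) and 18.6% (Cd24a after PBS). Counting error alone was at most 3.14%, for the 1013 counts of Cd44 in PBS replicate 1. PBS replicate 3 had the lowest value of the PBS group for Kit, Cd24a, Epcam, Prom1, Itgb4 and Cd9. In the TNF group, replicate 4 had the highest Epcam, Itga6 and Cd9 and the lowest Kit and Itgb4.

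Genes of the pathways to which the surface markers belong were taken from 8 lists with 134 different genes, 107 of which were tested. Of these, 56 were called higher and 22 lower after TNF, and their median log2 fold change was 0.52. The share called was 72.9%. Over all tested genes it was 59.6%, with 29.5% higher and 30.1% lower, which is the background for every list below.

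For KIT, the list of ligand and signalling genes had 8 genes called higher and 4 lower of 15 tested (median log2 fold change 0.32), and with total counts only 5 were called higher. Kitl, which encodes stem cell factor, had 18.6, 22.1 and 29 CPM after PBS and 19.1, 10.6, 18.5 and 18.2 CPM after TNF. The ranges overlapped, and Kitl was not called (log2 fold change -0.48 ± 0.21, SE, edgeR adjusted p = 0.0594), although it passed without the filter on low counts (adjusted p = 0.00801), without PBS replicate 1 (0.0315), without TNF replicate 1 (0.0423) or when scaled to Epcam (-1.82, 7.06e-05). Its log2 fold change was nearer to 0 without PBS replicate 3 (-0.30, adjusted p = 0.254), without TNF replicate 2 (-0.32, 0.135) and when scaled to Cd24a (-0.08, 0.816). The adaptor genes Gab2 (31 ± 1.17 to 87.4 ± 5.86 CPM, log2 fold change 1.49 ± 0.10) and Grb2 (46.8 ± 1.09 to 95.3 ± 4.61 CPM, 1.03 ± 0.10) rose. Ptpn6, which encodes the phosphatase SHP-1, a negative regulator of KIT, fell from 98.1 ± 28.5 to 41.8 ± 16.3 CPM (-1.23 ± 0.33, edgeR adjusted p = 0.0126), and this call was lost without the filter on low counts (adjusted p = 0.0641) and when scaled to Cd24a (-0.76, adjusted p = 0.0512).

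Among the other integrin subunits, 8 were called higher and 2 lower of 15 tested (median log2 fold change 0.91). Without PBS replicate 1, PBS replicate 3 or TNF replicate 1, 1 was called lower. Itga3, the alpha subunit of another laminin receptor, rose from 78.4 ± 10.1 to 524 ± 29.5 CPM (log2 fold change 2.74 ± 0.13, SE, edgeR adjusted p = 8.72e-10). Itgav rose from 35.3 ± 2.64 to 159.7 ± 14.7 CPM (2.18 ± 0.11) and its partner Itgb6 from 13.2 ± 1.17 to 32.2 ± 7.9 CPM (1.29 ± 0.18). Itgb1, the other beta subunit that pairs with alpha 6, was looked up after the values were seen, and rose from 203 ± 12.6 to 354 ± 22.8 CPM (0.80 ± 0.11, edgeR adjusted p = 1.76e-05), in the direction of Itga6 and not of Itgb4.

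The laminins and the hemidesmosome, the junction in which the Itga6 and Itgb4 products sit, had 6 genes called higher and 1 lower of 10 tested (median log2 fold change 0.88). Lamb3, which encodes a laminin chain of epithelial basement membranes, rose from 24.4 ± 0.716 to 74.4 ± 9.27 CPM (1.61 ± 0.12, SE, edgeR adjusted p = 9.96e-08). Lamb1, a chain of other laminins, fell from 179.6 ± 41.8 to 14.4 ± 0.343 CPM (-3.64 ± 0.14, edgeR adjusted p = 2.61e-10). Col17a1, which encodes a hemidesmosomal collagen, was at 0 counts in all 7 libraries.

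Of the hyaluronan and CD44 linker genes, 2 were called higher and 3 lower of 13 tested, with a median log2 fold change of -0.07. Ezr, which encodes ezrin, a linker between CD44 and actin, rose from 228 ± 25.7 to 544 ± 66.6 CPM (1.26 ± 0.13, SE, edgeR adjusted p = 2.15e-06). Hmmr, a hyaluronan receptor gene that is also active in dividing cells, fell from 19.8 ± 1.81 to 6.75 ± 1.57 CPM (-1.55 ± 0.19), and the membrane protease gene Mmp14 from 41.5 ± 3.67 to 29 ± 3.62 CPM (-0.52 ± 0.13). The hyaluronan synthase gene Has1 was at 0 counts in all libraries.

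For the tetraspanins other than Cd9 and their partners, 10 were called higher and 5 lower of 21 tested (median log2 fold change 0.18). The number called lower was 3 without PBS replicate 1 or PBS replicate 2, and 8 with total counts only. The largest changes by the rule for naming genes were rises, of Tspan1 (372 ± 64 to 1166 ± 126 CPM, 1.65 ± 0.15), Tspan8 (372 ± 59 to 987 ± 91.8 CPM, 1.41 ± 0.14) and Tspan5 (23.1 ± 1.96 to 55.1 ± 8.86 CPM, 1.26 ± 0.14). Each was smaller than that of Cd9 on the log2 scale, although this difference was not tested.

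The partners of EPCAM and epithelial junction genes had 10 genes called higher and 1 lower of 12 tested (median log2 fold change 0.68), and 2 were lower without PBS replicate 3 or with total counts only. Cldn7, which encodes the claudin that binds EPCAM, rose from 269 ± 10.8 to 744 ± 58.3 CPM (1.47 ± 0.12, SE, edgeR adjusted p = 1.39e-07). St14, which encodes the protease matriptase, rose from 157 ± 6.58 to 576 ± 70.3 CPM (1.88 ± 0.13), and the keratin gene Krt19 from 200.2 ± 17.3 to 719 ± 25.3 CPM (1.84 ± 0.11).

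In the immunoglobulin superfamily to which ALCAM belongs, 7 genes were called higher and 4 lower of 14 tested (median log2 fold change 0.94), and 2 were lower without PBS replicate 2. Icam1, the leukocyte adhesion molecule induced by TNF in many cell types, had 34 counts in the PBS and 19849 counts in the TNF libraries (0.617 ± 0.2 to 290.3 ± 29.1 CPM, log2 fold change 8.85 ± 0.20, SE, edgeR adjusted p = 5.46e-12). Pvr, the poliovirus receptor homologue, rose from 7.28 ± 0.726 to 100 ± 5.02 CPM (3.78 ± 0.12), and Ceacam1 from 112 ± 32.8 to 663 ± 59.2 CPM (2.56 ± 0.19). Of the GPI-anchored proteins other than CD24, 5 were called higher and 2 lower of 7 tested (median log2 fold change 1.11). Ly6a, which encodes the stem cell antigen Sca-1, had 15 counts in the PBS and 5823 counts in the TNF libraries (8.23 ± 0.29). PBS replicate 2, at 0.56 CPM against 0.124 and 0.106 CPM, held most of its PBS counts, and without this library the log2 fold change was 9.45. Cd14 rose from 4.22 ± 0.776 to 30.2 ± 2.26 CPM (2.83 ± 0.16) and Cd55 from 9.04 ± 0.786 to 22.2 ± 2.99 CPM (1.30 ± 0.16). The edgeR adjusted p of the genes named here without a p-value was at most 0.00266.

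**Figure D4:**
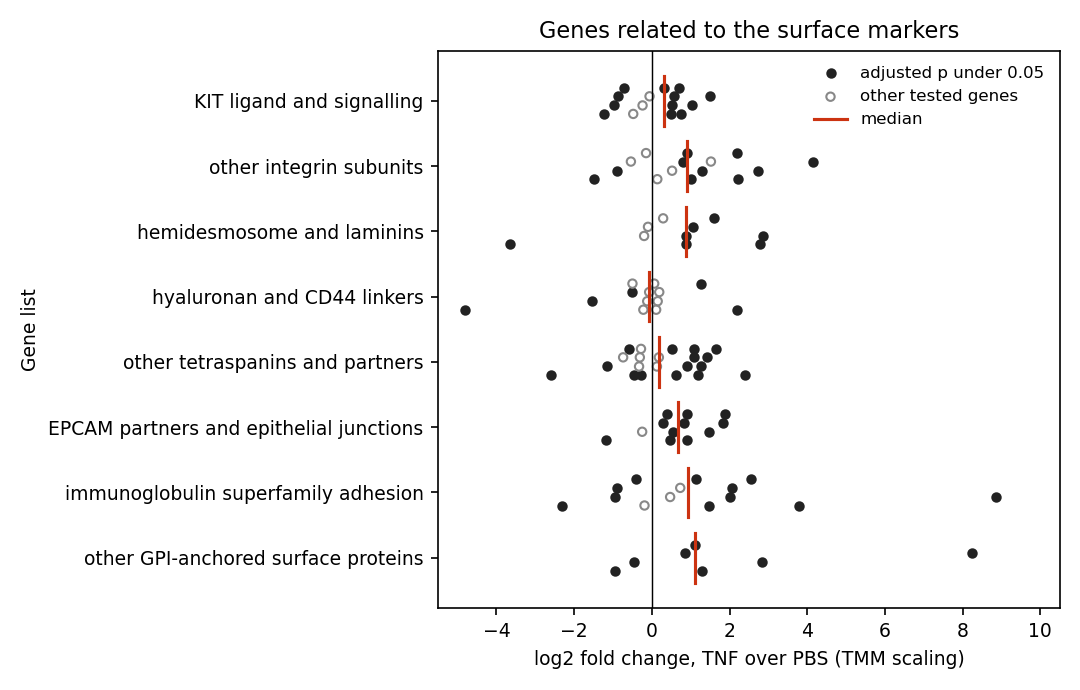
Log2 fold change (TNF over PBS, TMM scaling) of the tested genes in 8 lists related to the surface markers, 1 point per gene. Filled points passed an edgeR adjusted p under 0.05, open points did not, and red lines are medians. Medians lie between -0.07 (hyaluronan and CD44 linkers) and 1.11 (other GPI-anchored surface proteins), with Icam1 (8.85) and Ly6a (8.23) far to the right.

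Genes whose profile over the 7 libraries was most like that of a surface marker were picked by the smallest root mean square difference of centred log2 CPM among 8422 genes. For Kit these were Creb3l2 (difference 0.0694, log2 fold change -1.61 ± 0.11), Usf3 (0.0806, -1.72 ± 0.12) and Gstt3 (0.0936, -1.67 ± 0.14). For Cd24a they were Copb2 (0.0334, -0.44 ± 0.14), Manea (0.0649, -0.41 ± 0.14) and Galnt4 (0.0687, -0.53 ± 0.14). For Cd44 they were Eif2ak2 (0.0978, 1.22 ± 0.12), Tmsb4x (0.105, 1.24 ± 0.11) and Cd38 (0.113, 1.34 ± 0.11). This measure includes the difference between the groups.

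In bulk RNA, fewer cells of a type and less RNA per cell cannot be told apart. Several lists of epithelial cell type markers were mostly lower after TNF, whereas 4 surface markers were higher and 3 lower. These counts stand against 59.6% of all tested genes called and 30.1% called lower. Of the 11 tuft cell markers, 10 were called lower and 0 higher, and their summed level went from 1668 to 2778 CPM after PBS to 357 to 883 CPM after TNF. Of the 10 stem cell markers, 9 were called lower (3912 to 5237 CPM after PBS, 2166 to 2955 CPM after TNF), among them Lgr5, with 154 ± 12.4 and 30.8 ± 5.94 CPM. Goblet cell markers had 6 genes called lower and 1 higher of 10 (11668 to 21237 CPM and 9595 to 11174 CPM), enterocyte markers 7 lower of 8 tested (1032 to 1263 CPM and 305 to 368 CPM), and enteroendocrine markers 4 lower and 1 higher of 10 tested (50.4 to 123 CPM and 59.1 to 90.1 CPM). The enteroendocrine gene called higher was Tac1 (1.71 ± 1.24 and 41.1 ± 11.3 CPM), and without it the sums were 50.1 to 120.4 CPM and 23.4 to 34.3 CPM. The part of these cell types in the levels of Kit, Cd24a, Cd44, Prom1 and Alcam was not tested.

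Mast cells and the interstitial cells of Cajal are cells outside the epithelium that carry KIT. Mast cell markers summed to 0.153 to 0.848 CPM after PBS and 0.472 to 2.22 CPM after TNF, with Cpa3, Mcpt1, Mcpt4, Tpsab1 and Ms4a2 at 0 counts in all libraries. Markers of the interstitial cells of Cajal summed to 2.07 to 4.58 CPM and 10.4 to 14.7 CPM, with Gucy1a1 at 0 counts. Most of the latter sum was Ano1, which encodes a chloride channel and was called higher, with 2.42 ± 0.965 and 11.5 ± 2.07 CPM (log2 fold change 2.25 ± 0.29). The part of these cells in the level of Kit was not tested. Leukocyte markers summed to 13.3 to 28.2 CPM and 17.7 to 20.4 CPM, endothelial markers to 4.4 to 9.21 CPM and 9.16 to 11 CPM (Kdr and Cldn5 at 0), stromal markers to 1.85 to 2.19 CPM and 0.177 to 1.57 CPM (Col1a2 and Lum at 0), and erythroid markers to at most 0.318 CPM, with all 4 haemoglobin genes at 0. Of the tested genes of these lists, 1 was called higher and 1 lower of 4 for leukocytes, 1 and 1 of 2 for endothelium, 0 and 1 of 1 for stroma and 1 and 0 of 1 for the cells of Cajal. Shares over all tested genes were 29.5% higher and 30.1% lower.

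Marker genes of intestinal position also differed between the groups. Duodenal and jejunal markers summed to 178 to 216 CPM after PBS and 33.5 to 45.7 CPM after TNF (5 of 6 tested genes called lower, Onecut1 at 0 counts), and ileal markers to 27.6 to 45.3 CPM and 68.7 to 75.8 CPM (3 higher and 1 lower of 4 tested). Of all tested genes, 29.5% were called higher and 30.1% lower. The ileal genes called higher were Hoxb9 (9.59 ± 1.96 and 44.6 ± 2.79 CPM), Hoxb8 (4.26 ± 1.52 and 13.9 ± 1.35 CPM) and Slc51b (0.404 ± 0.356 and 4.01 ± 0.315 CPM). Osr2 was called lower (18.5 ± 2.61 and 9.6 ± 0.48 CPM). Untested for low counts, Cubn (136 and 0), Fabp6 (39 and 2), Slc51a (27 and 0) and Hoxa10 had more counts after PBS. Slc10a2 (0 and 34) and Fgf15 had more after TNF. The lists of position markers had been chosen in earlier work on the same values. The part of intestinal position in the surface marker levels was not tested. Of the marker genes, those named singly, Tac1 and Ano1 among them, were picked after their values were seen.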

How the data were processed

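Counts of 7 libraries of purified PCs (3 PBS, 4 TNF) were analysed. The authors deposited 1 table of raw counts, whole numbers of reads per Ensembl gene. Their processing notes name FastQC, Trimmomatic 0.39, STAR 2.7.10a, DESeq2 and the builds mm10 and mm39. Counting program, annotation and strand use: not given in the sources used here. Symbols, positions and exon lengths were taken from GENCODE M39 (GRCm39), in which 98.8% of 55414 identifiers were found.

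TNF was compared with PBS in R 4.3.3 with edgeR 4.0.16 (filterByExpr, TMM, robust quasi-likelihood fit without covariates, two-sided), tried on simulated data first. The simulation changed only 200 genes, equally up and down, so it does not cover data in which most tested genes are called. SE were derived from the F statistic. DESeq2 1.42.0 was an alternative. TPM were computed over all genes with a length, and are compared only between genes within a group, since the share of short abundant transcripts differs between libraries. Ratios are of raw counts.

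The 9 genes and all lists were chosen with earlier results of these data known. Named from each pathway list were the 3 called genes with the largest absolute log2 fold change, a mean of at least 10 CPM and groups that did not overlap, and Kitl; some genes are not reported here. For profiles, the 3 nearest genes to Kit, Cd24a and Cd44 were named (log2 of CPM + 1, symbols Gm with a number or ending in Rik left out). Alternatives were other scalings and filters, a fold limit, DESeq2, a block on replicate number and leaving out each library. No batch is given in the labels. P-values measure the spread between mice as labelled.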

Additional observations from a re-analysis of the deposited data

Results flagged for a closer look

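Within the 4 TNF libraries, the highest and the lowest value of each surface marker gene, each ratio, each gene named from a pathway list and each summed marker list were compared with the other TNF libraries by the Dixon ratio. Of 50 values, 1 stood apart, where chance gives about 1 in 20. This was the summed level of the erythroid markers, at 0.236 CPM in TNF replicate 2 and 0 CPM in the other TNF libraries. None of the 9 surface marker genes stood apart in a TNF library. The PBS group of 3 was too small for this comparison.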

How the results depend on the processing

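Kit, Epcam and Cd9 kept their direction and their call under all alternatives that gave a value, with log2 fold changes of -2.96 to -1.22 for Kit, 1.14 to 1.75 for Epcam and 1.32 to 3.07 for Cd9, the limit of 2-fold included. Scaling to Epcam turned the sign of Cd44 (-0.01), Itga6 (-0.63), Prom1 (-1.20) and Alcam (-1.11), and, among the list genes named in the text by the rule, of Grb2 (-0.28), Ezr (-0.05) and Tspan5 (-0.07), with Cd55 at -0.00. It also ended the calls of Gab2 (0.18), Itgb6 (0.01), Lamb3 (0.29), Tspan8 (0.12) and Cldn7 (0.16) and made that of Kitl (-1.82). Other list genes were not followed singly. Scaling to Epcam left 1 surface marker higher and 6 lower as well as 16 list genes higher and 65 lower. Of the 14328 genes tested with this scaling, 763 were called higher and 10728 lower. Scaling to Cd24a made Prom1 (0.55) and Alcam (0.63) called, ended the calls of Itgb4 (-0.08), Ptpn6 (-0.76) and Mmp14 (-0.07), and left 1 surface marker and 10 list genes lower. Epcam, Cd44, Prom1, Alcam, Itga6 and Cd9 were called higher on that scale. Among the 14328 genes tested with it, 5933 were called higher and 2182 lower. The shift of the median over the tested genes (log2) was -0.16 with total counts only, -1.30 scaled to Epcam and 0.44 scaled to Cd24a. With total counts only, 3142 genes were called higher and 4614 lower, against 4229 and 4314. With a limit of 2-fold, Cd24a (-0.46), Itga6 (0.68) and Itgb4 (-0.52) were not counted, which left 1 surface marker lower, and 34 list genes higher and 9 lower. At this limit, 31.6% of all tested genes were called. Leaving out a library gave Cd24a log2 fold changes of -0.61 to -0.34. The cause of its lost calls was not tested. The replicate block ended the call of Cd24a (-0.47, adjusted p = 0.167; range over its 16 alternatives 2.15e-08 to 0.167). Deviations of same-numbered libraries from their group means correlated at -0.398, -0.047 and -0.227, and those of other pairs at -0.264 to 0.42. Such deviations cancel out within a group, so these values cannot show whether same-numbered libraries shared a batch. With the block, 3553 genes were called higher and 3578 lower. The counts of single lists moved by over 1.5 times most often with scaling to Epcam (13 of 16) and the limit of 2-fold (8 of 16). With the longest transcript as gene length, Cd9 and Prom1, and Itgb4 and Itga6, changed places after PBS, and Kit and Itgb4 after TNF. Depth was no limit for the surface markers, which had at least 1013 counts in each library.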
